A study of Mus musculus with 12 samples.

Results

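The matrix metalloproteinases (MMPs), the ADAMTS proteinases and the tissue inhibitors of metalloproteinases (TIMPs) were followed in RNA-seq of B16F10, an established melanoma line of C57BL/6 mice. Members were taken by gene name alone, as Mmp or Adamts followed by a number, or Timp1 to Timp4, and 5 Adamtsl genes, which encode related proteins without a protease domain, were left out. This gave 46 of the 54232 genes in the counts table, 23 MMPs, 19 ADAMTS genes and 4 TIMPs. The 12 libraries formed 4 groups of 3. WT cells were B16F10 cultures that received no treatment. Relapsed lines (ITF1, Rel and ITM) came from subcutaneous B16F10 tumors of mice given an intratumoral immunotherapy of anti-CD40, tumor necrosis factor and an antibody to the melanoma antigen TRP1. Their cells were sorted and expanded in culture before RNA was taken, and each line counted as 1 library. Tumor libraries (Tumor 1, 3 and 4) were B16F10 cells sorted from such treated tumors, with RNA taken at once, and the gate of that sort was not given in the sources used here. Lyso cells were cultured B16F10 exposed to lysosomal granules of T cells, for 48 h by the labels, while the methods give a shorter exposure. The labels give an age of 6 weeks and the strain C57BL/6 for all groups, while the methods give older mice. Nothing in the labels says that replicates came from separate cultures or animals in every group, so p-values measure the spread between these libraries, which may be technical.

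MMPs and ADAMTS enzymes are zinc proteases made as inactive precursors and cleaved to become active. MMPs cut collagens, laminins and other matrix proteins. ADAMTS enzymes cut proteoglycans such as versican, trim procollagens or cut von Willebrand factor. TIMPs bind the active site and block it, and the membrane-bound Mmp14 uses Timp2 to dock and activate the precursor of Mmp2. In melanoma this family is known for opening basement membranes and remodelling the stroma, and much of it is made by fibroblasts and leukocytes around the tumor cells.

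The deposited values were raw counts per gene. They are given here as CPM, the usual depth-scaled count, with library sizes adjusted by edgeR's TMM method, and a difference as a log2 fold change with its standard error (SE). A gene was called at a Benjamini-Hochberg adjusted p under 0.05 from edgeR's quasi-likelihood test and a log2 fold change beyond 1 in either direction, over 14924 tested genes. Depth ran from 1667398 counts on genes in WT 1 to 16402629 in ITM. WT 1, WT 2 and the Tumor libraries, with 5049496 counts or fewer, were shallow, and WT 3, the relapsed lines and Lyso were deep, so 3 counts stood for 1.70 CPM in WT 1 and 0.177 CPM in WT 3. The labelled cell type was checked with 10 melanocyte markers, among them Dct, Pmel, Tyr, Mlana and Sox10, whose summed level was 19810 to 28448 CPM in WT and 20546 to 22660 CPM in Tumor, with 0 of 10 called between them by edgeR, 1 by DESeq2 and 4 at an unadjusted p under 0.05. Their sum was 23156 to 37434 CPM in the relapsed lines and 29870 to 30651 CPM in Lyso. Against the lines, 1 melanocyte marker was called higher and 2 lower in Tumor by edgeR. Against Lyso, 1 was called lower in Tumor and 6 of 10 had an unadjusted p under 0.05. Markers of some other cells rose in Tumor. All 10 fibroblast markers were called higher than in WT, with a summed level of 30.0 to 39.5 CPM in WT, 19.9 to 31.2 CPM in the relapsed lines, 15.1 to 18.01 CPM in Lyso and 7707 to 10709 CPM in Tumor. Col3a1 and Dcn had 2 counts or fewer in every cultured library, against as many as 20653 and 1491 in a Tumor library. Of 10 macrophage markers 7 were called higher, with summed levels of 12.5 to 29.2 CPM in WT, 12.5 to 46.8 CPM in the relapsed lines, 33.4 to 37.3 CPM in Lyso and 55.9 to 80.7 CPM in Tumor. C1qa, C1qb and Fcgr1 had 0 counts in every cultured library. Endothelial markers came to 0 to 1.06 CPM in WT and 23.5 to 30.4 CPM in Tumor, with 6 of 8 called higher, and 2 of 6 pericyte and smooth muscle markers were called higher, at 9.71 to 18.5 CPM in WT and 25.2 to 39.9 CPM in Tumor. The 8 neutrophil markers had 3 counts or fewer in each Tumor library, with Ly6g, Cxcr2 and Camp at 0. Of 8 T cell markers 6 had 3 counts or fewer in each Tumor library, and Cd3e, Cd3d and Cd8b1 were at 0 there. Markers almost absent from culture, such as Col3a1 and Dcn, could be tested only because of their Tumor counts. For the other markers this was not worked out, so the higher marker calls in Tumor are a description. Fibroblast, macrophage, endothelial, and pericyte and smooth muscle markers had higher sums in each Tumor library than in any cultured one. None of the 3 tested T cell markers was called between Tumor and WT. The part of these markers in the results on Tumor was not tested. In such bulk libraries, fewer cells of a type and less RNA per cell cannot be told apart.

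Of the 23 MMP genes, 10 stand in 1 cluster on chromosome 9, and their start regions are shown because most of them share a short motif there. The cluster spans 427.1 kb of GRCm38 in the GENCODE annotation, from Mmp13 (chromosome 9, 7272514 to 7283331) to Mmp7 (chromosome 9, 7692090 to 7699585). The 120 bases directly before the RefSeq gene start (GRCm38.p6) are printed for 8 of them, 5′ to 3′ on the strand of the gene, with the AP-1 motif, TGACTCA or its reverse complement TGAGTCA, in capitals. AP-1 is the family of Fos and Jun dimers that binds these letters. In the order below, the sequences are chr9:7272394-7272513, chr9:7347254-7347373, chr9:7388027-7388146 (minus strand), chr9:7445702-7445821, chr9:7464021-7464140, chr9:7502222-7502341, chr9:7691970-7692089 and chr9:7571276-7571395, all on the plus strand but Mmp1b. The RefSeq starts of Mmp12 and Mmp1b lie inside their GENCODE genes, which hold all 120 of the Mmp12 bases shown and 21 of those of Mmp1b. Mmp27 is shown as the expressed member of the cluster without the motif.
Mmp13: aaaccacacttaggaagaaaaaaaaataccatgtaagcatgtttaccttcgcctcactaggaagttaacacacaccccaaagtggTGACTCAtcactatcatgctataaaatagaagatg
Mmp12: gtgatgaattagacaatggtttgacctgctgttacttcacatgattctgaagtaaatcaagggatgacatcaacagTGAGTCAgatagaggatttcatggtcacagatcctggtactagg
Mmp1b: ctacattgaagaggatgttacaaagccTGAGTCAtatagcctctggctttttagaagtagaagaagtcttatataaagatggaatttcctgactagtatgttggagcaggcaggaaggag
Mmp3: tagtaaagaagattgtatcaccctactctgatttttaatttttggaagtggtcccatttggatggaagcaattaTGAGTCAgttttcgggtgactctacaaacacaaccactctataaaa
Mmp1a: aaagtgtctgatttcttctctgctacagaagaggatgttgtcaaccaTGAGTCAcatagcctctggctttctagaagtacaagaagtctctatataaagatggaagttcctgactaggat
Mmp10: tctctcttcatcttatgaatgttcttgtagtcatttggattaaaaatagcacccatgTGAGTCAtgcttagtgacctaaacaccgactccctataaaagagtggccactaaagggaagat
Mmp7: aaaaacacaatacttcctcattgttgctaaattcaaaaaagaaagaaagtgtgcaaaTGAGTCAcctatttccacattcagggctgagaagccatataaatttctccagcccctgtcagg
Mmp27: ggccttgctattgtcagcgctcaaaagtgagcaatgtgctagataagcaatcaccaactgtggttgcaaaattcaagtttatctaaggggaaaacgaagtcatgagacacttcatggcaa

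Counted from the start, with -1 as the base before it, the first base of the motif stood at -35 in Mmp13, -44 in Mmp12, -46 in Mmp3, -63 in both Mmp10 and Mmp7, -73 in Mmp1a and -93 in Mmp1b. In the whole window, from 250 bases before to 50 after the start, the AP-1 letters were found in 7 of the 10 cluster genes, all but Mmp8, Mmp20 and Mmp27. No other of the 32 members with a RefSeq window held them, and 5.95% of the windows of 27025 genes did. Of 2 further motifs searched on both strands, TTCNNNGAA, the STAT motif, was found in 1 of the 32 members (Mmp23) and 9.55% of all genes. GCGNGGGCG, the EGR motif, was found in 4 (Adamts14, Mmp11, Mmp14 and Mmp24) and 6.27% of all genes. These are matches of letters and not binding sites.

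The cluster was almost silent in culture and partly on in Tumor. Summed over the 9 cultured libraries, no cluster gene exceeded 9 counts. In Tumor, Mmp3, a stromelysin that cuts proteoglycans and activates other MMPs, had 96, 220 and 174 counts, while Mmp27 had 4, 11 and 8 counts and these were the 2 cluster genes that passed the expression filter. Mmp10, the other stromelysin of the cluster, had 11, 11 and 1 counts in Tumor 1, 3 and 4. Mmp12, the macrophage elastase, had 2, 9 and 11 counts. Mmp13, a collagenase, had 6, 9 and 3 counts in Tumor and 0 in every cultured library, a level at least 10.3-fold higher than in WT when WT is set at 3 counts over the group. Mmp1a, Mmp1b, Mmp7, Mmp8 and Mmp20 had 0 counts in all Tumor libraries. Mmp1a, whose annotation is a polymorphic pseudogene, and Mmp1b are near copies of each other, so reads that fit both were not counted and their values are uncertain. The motif was thus present both in cluster genes with Tumor counts and in Mmp1a, Mmp1b and Mmp7, and it was absent from Mmp27.

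**Figure D1:**
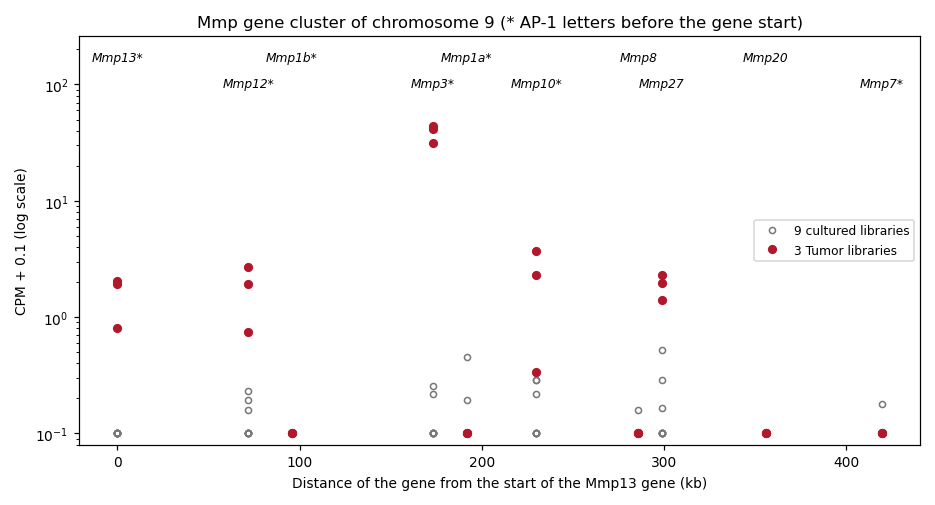
The 10 MMP genes of the chromosome 9 cluster by distance from the start of the Mmp13 gene (x axis, kb) and CPM plus 0.1 on a log scale (y axis), with 1 point per library, red for the 3 Tumor libraries and open grey for the 9 cultured ones, and an asterisk for the AP-1 letters. Mmp3 stands highest, at 31.2 to 44.3 CPM in Tumor.

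Of the 46 members, 29 passed the expression filter and were tested. The other 17 were 12 MMPs (Mmp1a, Mmp1b, Mmp7, Mmp8, Mmp10, Mmp12, Mmp13, Mmp16, Mmp20, Mmp21, Mmp25 and Mmp28) and 5 ADAMTS genes (Adamts3, Adamts8, Adamts16, Adamts17 and Adamts18), none with more than 11 counts in a library. Mmp1b, Mmp20 and Adamts18 had no count at all. Among the tested members, 7 (Mmp3, Mmp9, Mmp17, Mmp27, Adamts2, Adamts15 and Adamts19) reached the level of the filter, 0.901 CPM in 3 libraries, only with the help of the Tumor libraries. These 7 could enter the tests in no other way, so counts are also given for the other 22. The p-values of these 7 in comparisons with Tumor are printed as a description and add no support.

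**Figure D2:**
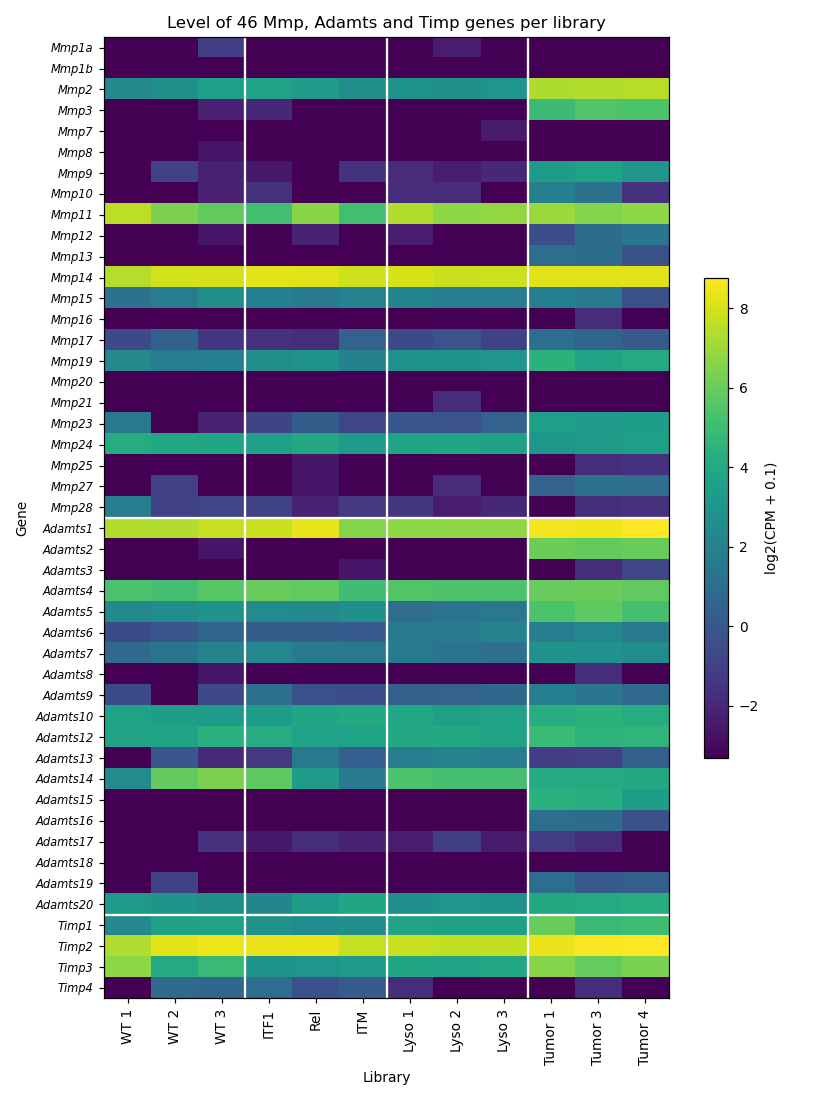
Level of the 46 members (rows) in the 12 libraries (columns, parted by white lines into WT, relapsed lines, Lyso and Tumor) as log2 of CPM plus 0.1. Rows are parted into MMPs, ADAMTS genes and TIMPs, and the dark rows are members with 0 or few counts.

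A few members carried most of the signal. By mean CPM over the 12 libraries the order was Timp2 (295 CPM), Mmp14 (261 CPM), Adamts1 (223 CPM), Mmp11 (100.2 CPM) and Adamts4 (49.4 CPM). The order differed between groups, since Mmp14 (240 CPM) had more than Timp2 (207 CPM) in Lyso, and Adamts1 (391 CPM) more than Mmp14 (300.3 CPM) and Mmp2 (167 CPM) more than Mmp11 (107.8 CPM) in Tumor. Divided by exonic length, Timp2 led in every group, at 71.2 ± 26.3 CPM per kb in WT, 76.1 ± 19.1 in the relapsed lines, 53.01 ± 2.25 in Lyso and 102.8 ± 12.4 in Tumor (SD, n = 3 each). In WT, Mmp11 at 39.5 ± 24.7, Mmp14 at 37.4 ± 7.87 and Adamts1 at 33.95 ± 4.76 CPM per kb followed, and these 3 did not differ beyond their spread. In Tumor, Adamts1 was the second at 73.7 ± 7.76 CPM per kb, and Mmp14 at 50.4 ± 0.365, Mmp2 at 49.5 ± 3.81 and Timp1 at 46.6 ± 20.6 CPM per kb stood close together after it. Mmp3 was the seventh in Tumor, at 21.6 ± 3.77 CPM per kb. Summed over all 46 members, the cultured libraries held 709 to 1230 CPM and the Tumor libraries 1825 to 1924 CPM. All 3 families lay higher in every Tumor library than in any cultured one, the MMPs with 662 to 681 CPM, the ADAMTS genes with 654 to 694 CPM and the TIMPs with 504 to 548 CPM.

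**Figure D3:**
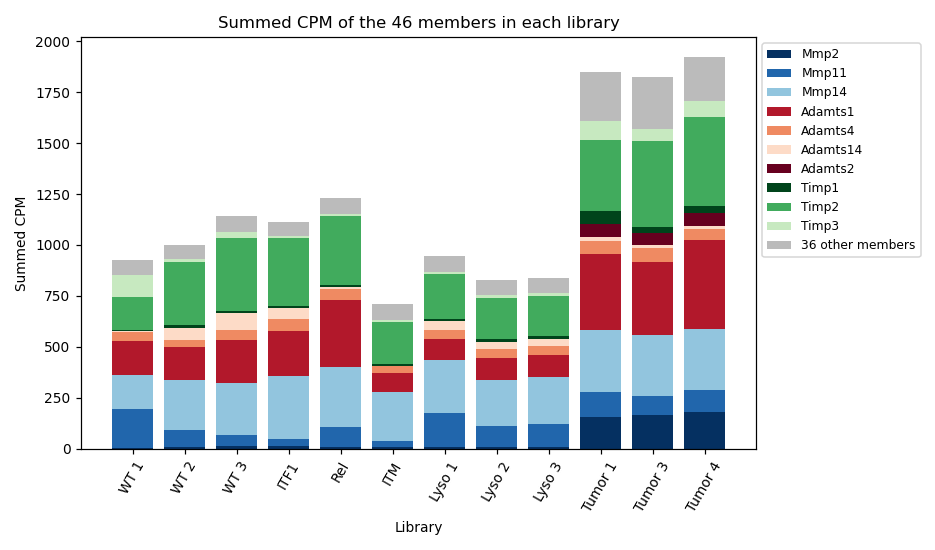
Summed CPM of the 46 members in each library (bars from 0), stacked by gene, with the 36 members not named in one grey block. Mmp2, Adamts2 and Timp1 widen in the Tumor bars, which reach 1825 to 1924 CPM.

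The comparison of Tumor with WT asked how cells taken straight from treated tumors differ from the cultured line. The gelatinases Mmp2 and Mmp9, the stromelysin Mmp3, the procollagen enzyme Adamts2, the proteoglycan enzymes Adamts5 and Adamts15 and the inhibitor Timp1 were among the members called higher in Tumor, and Mmp11, Mmp14, Adamts4, Adamts14 and Timp2 were not called. In all, 15 of the 29 tested members were called higher, where 8.56% of all tested genes were, and 1 was called lower, where 2.2% were. Without the 7 members that were tested through Tumor, 9 of 22 were called higher and 1 lower. The shares above still hold all genes tested through Tumor. No share without such genes was worked out, so the 22 have no like background. The median log2 fold change was 1.32 over the 29 members, 0.90 over the 22 and 0.00 over all genes. Without Tumor 3 the count of calls fell from 16 to 10. Among the 22 members, the calls of Mmp2, Mmp19, Mmp23, Adamts5 and Timp1 held in every alternative run that tested them, and a minimum of 10 counts in each compared library left all of these untested.

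Both gelatinases were called higher. Mmp2 (ENSMUSG00000031740, chromosome 8, 92827291 to 92853420), which cuts denatured collagen and basement membrane collagen, had 154, 166 and 180.1 CPM in Tumor 1, 3 and 4 and 5.09, 6.33 and 11.1 CPM in WT 1, 2 and 3. It had 12.6, 9.64 and 6.11 CPM in ITF1, Rel and ITM, and 7.26, 6.33 and 7.94 CPM in Lyso 1, 2 and 3. Every Tumor library thus lay far above all 9 cultured ones, which overlapped among themselves. The log2 fold change of Mmp2 in Tumor over WT was 4.26 (SE 0.28, edgeR adjusted p = 5.89e-07), and 4.85 without WT 3. Mmp9 (ENSMUSG00000017737, chromosome 2, 164940780 to 164955850), the other gelatinase, had 30, 64 and 33 counts in Tumor and at most 4 in a cultured library. Pooled over the libraries, its Tumor rate was 72.6 times that of WT (95% counting interval 24.3 to 357, edgeR adjusted p = 5.04e-05). Mmp9 was tested only through Tumor, so this p is a description.

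The stromelysins did not move together. Mmp3 (ENSMUSG00000043613, chromosome 9, 7445822 to 7455975) had 490 counts over the Tumor libraries and 2 over WT, a ratio of 420 (95% counting interval 116 to 3481, edgeR adjusted p = 3.34e-06). Mmp3, like Mmp27 below, entered the test only through Tumor, so their p-values are descriptions. Mmp11, which furin activates inside the cell, had 124, 93.4 and 105.7 CPM in Tumor and 187, 84.02 and 57.6 CPM in WT. The groups overlapped and the log2 fold change of Mmp11 was 0.01 (SE 0.45, edgeR adjusted p = 0.991), with a sign that changed with the scaling and the libraries used. Of the membrane-type MMPs, Mmp14 (ENSMUSG00000000957, chromosome 14, 54431612 to 54445364) had 303, 298 and 300.1 CPM in Tumor and 169, 246 and 254 CPM in WT. Its Tumor libraries all lay above WT, but the log2 fold change of 0.42 (SE 0.16, edgeR adjusted p = 0.0779) was not called, and Mmp15, Mmp17 and Mmp24 were not called either. Among other secreted MMPs, Mmp19 had 21.5, 13.1 and 16.7 CPM in Tumor and 5.09, 3.38 and 3.60 CPM in WT. Its log2 fold change was 2.14 (SE 0.31, edgeR adjusted p = 0.000486), and 28.3% of its exonic length is shared with genes on the other strand, from which its reads cannot be told apart without the strand setting. Mmp23, an MMP released from the membrane by cleavage, had 11.4, 10.3 and 10.8 CPM in Tumor and 2.83, 0 and 0.118 CPM in WT, a log2 fold change of 4.66 (SE 0.80, edgeR adjusted p = 0.00147). It was 6.56 without WT 1 and 3.11 without WT 3. Mmp27, with 1 count over WT and 23 over Tumor, had a ratio of 39.5 (95% counting interval 6.41 to 1626, edgeR adjusted p = 0.00729), and its call was lost without WT 3 (adjusted p = 0.157).

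Procollagen N-proteinases remove the end piece at the N-terminus of procollagens. Adamts2 (ENSMUSG00000036545, chromosome 11, 50602084 to 50807573), the main enzyme of this kind for fibrillar collagens, had 206, 293 and 265 counts in Tumor and a single count in all 9 cultured libraries, in WT 3. The Tumor rate was 1311 times that of WT (95% counting interval 235 to 51846, edgeR adjusted p = 4.43e-07), at least 925-fold higher than in the relapsed lines and at least 698-fold higher than in Lyso. Adamts2 could be tested only because of its Tumor counts, so the p is a description. Its relative Adamts14 behaved otherwise, with 17.6, 16.7 and 16.01 CPM in Tumor and 5.66, 57.4 and 84.1 CPM in WT. WT 1 lay below and the other two WT libraries above Tumor, and Adamts14 was not called (log2 fold change -1.64, SE 0.86, edgeR adjusted p = 0.212). The third, Adamts3, had 2 counts or fewer in each library.

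The enzymes that cut versican and aggrecan rose in part. Adamts5 (ENSMUSG00000022894, chromosome 16, 85856173 to 85901828), the main aggrecanase of mouse cartilage, had 40.3, 55.4 and 37.2 CPM in Tumor and 5.09, 5.91 and 7.02 CPM in WT. The groups were far apart, with a log2 fold change of 2.81 (SE 0.22, edgeR adjusted p = 3.22e-06). Its neighbour Adamts1, 53.06 kb away (ENSMUSG00000022893, chromosome 16, 85793827 to 85803113), had 376, 359 and 437 CPM in Tumor and 168, 163 and 209 CPM in WT. All Tumor libraries lay above WT, and the log2 fold change was 1.11 (SE 0.32, edgeR adjusted p = 0.0280). The call of Adamts1 was lost without any one of the WT or Tumor libraries, with an adjusted p of up to 0.0865. Adamts15 (ENSMUSG00000033453, chromosome 9, 30899155 to 30922452) had 64, 93 and 45 counts in Tumor and 0 in every cultured library, a level at least 115.5-fold higher than in WT (edgeR adjusted p = 0.000429), while Adamts8, 20.11 kb away, had 1 count or none in each library. The p of Adamts15, which was tested only through Tumor, is a description. Adamts20 had 15.9, 16.9 and 18.4 CPM in Tumor and 9.06, 7.60 and 6.13 CPM in WT, a log2 fold change of 1.245 (SE 0.36, edgeR adjusted p = 0.0294), and Adamts9 had 3.58, 2.62 and 1.65 CPM against 0.566, 0 and 0.531 CPM, a log2 fold change of 2.47 (SE 0.67, edgeR adjusted p = 0.0211). The call of Adamts20 was lost without WT 2, WT 3 or any one Tumor library (adjusted p of up to 0.155), and that of Adamts9 without WT 3, where the log2 fold change was 3.32, Tumor 1 or Tumor 3 (adjusted p of up to 0.0879). Adamts4, an aggrecanase, had 62.7, 67.4 and 56.3 CPM in Tumor and 40.8, 35.9 and 48.8 CPM in WT and was not called (log2 fold change 0.55, SE 0.21, edgeR adjusted p = 0.0856).

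Of the remaining ADAMTS genes, Adamts6 and Adamts19 were called higher in Tumor than in WT. Adamts6, a relative of the fibrillin-binding Adamts10, had 3.25, 4.83 and 2.82 CPM in Tumor and 0.566, 0.844 and 1.42 CPM in WT (log2 fold change 1.64, SE 0.38, edgeR adjusted p = 0.00861, and 0.0550 without Tumor 3). Without WT 3 the log2 fold change of Adamts6 was 2.33. Adamts19 had 6, 5 and 5 counts in Tumor and 1 count over WT, a ratio of 27.5 (95% counting interval 4.27 to 1151, edgeR adjusted p = 0.0220), and its call was lost with DESeq2 and without WT 3 (adjusted p = 0.144 and 0.238). It too was tested only through Tumor, so its p is a description. Adamts10 had an edgeR adjusted p of 0.0207 with a log2 fold change of 0.78 (SE 0.21), short of the fold limit. The cartilage protein cleaving Adamts7 and Adamts12 and the von Willebrand factor protease Adamts13 were not called. Adamts16 was at 0 in all cultured libraries and had 6, 9 and 3 counts in Tumor.

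The inhibitors differed from one another. Timp1 (ENSMUSG00000001131, chromosome X, 20870166 to 20874735), a secreted inhibitor of most MMPs, had 62.4, 29.6 and 32.01 CPM in Tumor and 5.09, 11.8 and 12.8 CPM in WT. Every Tumor library was above every WT library, and the log2 fold change was 1.94 (SE 0.32, edgeR adjusted p = 0.00108). Timp2 (ENSMUSG00000017466, chromosome 11, 118301069 to 118355740) had 346, 418 and 437 CPM in Tumor and 162, 311 and 359 CPM in WT. The groups overlapped and Timp2 was not called (log2 fold change 0.52, SE 0.25, edgeR adjusted p = 0.173). Timp3 (ENSMUSG00000020044, chromosome 10, 86300372 to 86349506), which binds to the matrix and also blocks several ADAMTS enzymes, had 95.6, 60.4 and 79.6 CPM in Tumor and 106.4, 16.5 and 29.3 CPM in WT. WT 1 stood above all Tumor libraries and the other two below, and the log2 fold change of 0.71 (SE 0.46, edgeR adjusted p = 0.317) was not called. Without WT 1 it became 1.69 (adjusted p = 0.000423). Timp3 lies inside Syn3, with 21.3% of its exonic length overlapped on the other strand. Timp4 (ENSMUSG00000030317, chromosome 6, 115241892 to 115252205), the least abundant of the 4, had 1 count over the Tumor libraries and 0, 4 and 26 counts in WT 1, 2 and 3, a rate 17.5 times higher in WT (95% counting interval 2.91 to 713). It was called lower (edgeR adjusted p = 0.0450), but WT 1 overlapped Tumor at 0, and the call was lost in 9 of 17 alternatives, at an adjusted p of up to 0.231. Among these, the fit without WT 3 is counted under 2 names.

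**Figure D4:**
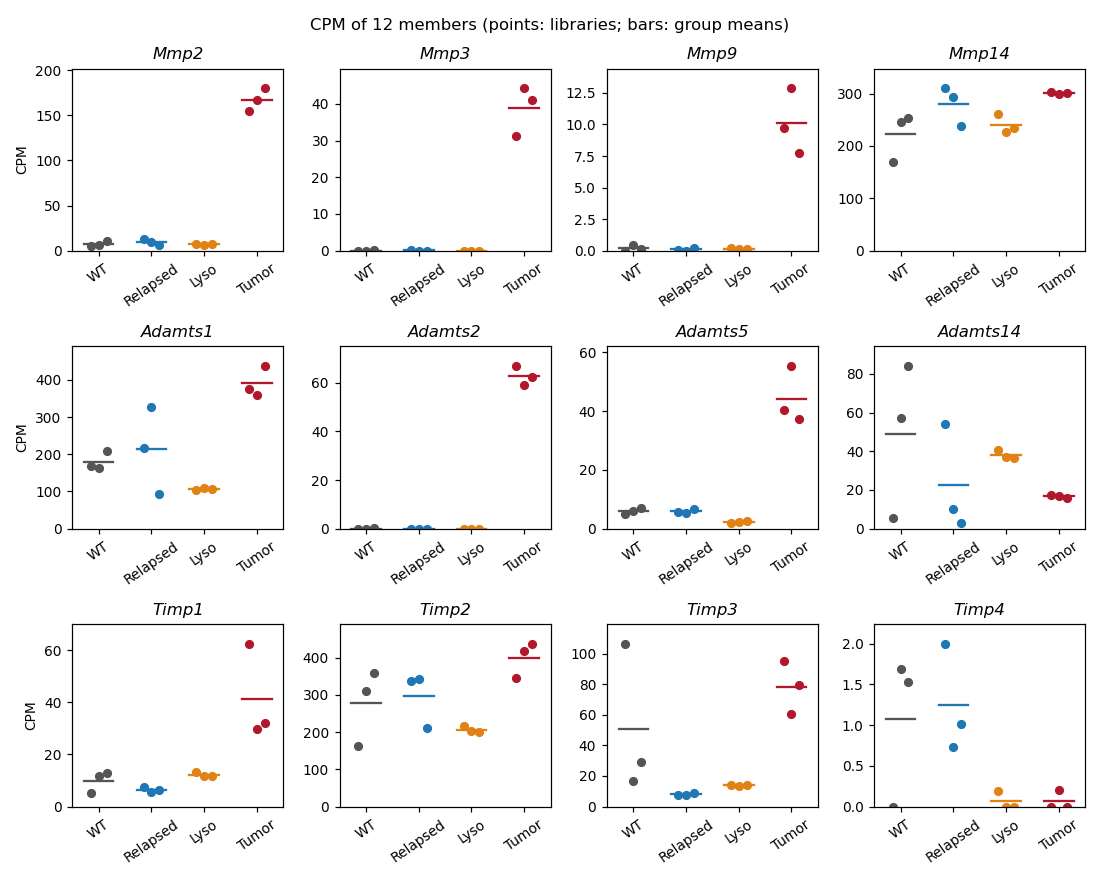
CPM of 12 members in each library (points) with the mean of each group of 3 (horizontal bars), each panel from 0 on its own linear axis. Mmp2, Mmp3, Mmp9, Adamts2 and Adamts5 stand apart in Tumor, while WT 1 sets the spread of Timp3, and the WT and relapsed libraries scatter widely for Adamts14.

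The comparison of Tumor with the relapsed lines set sorted cells against cells that had been through the same kind of tumor and then cultured. It shares the Tumor libraries with the comparison above. Here 13 of 29 tested members were called higher, against 8.36% of all tested genes, and 1 lower, against 2.31%. Of the 22 members not tested through Tumor, 7 were called higher and 1 lower, again without a like share over all genes. The MMPs called higher were Mmp2, Mmp3, Mmp9, Mmp19, Mmp23 and Mmp27, and the ADAMTS genes were Adamts2, Adamts5, Adamts6, Adamts15 and Adamts19. Mmp2 differed by 4.15 on the log2 scale (SE 0.26, edgeR adjusted p = 2.40e-07) and Adamts5 by 2.92 (SE 0.21, edgeR adjusted p = 6.93e-07). Adamts6 had 1.08, 1.07 and 1.02 CPM in ITF1, Rel and ITM, below every Tumor library, a log2 fold change of 1.79 (SE 0.33, edgeR adjusted p = 0.00195). Adamts1 had 218, 328 and 92.8 CPM in the 3 lines, all below Tumor, and was not called (log2 fold change 0.88, SE 0.31, edgeR adjusted p = 0.0692). Among the inhibitors, Timp1 and Timp3 were higher in Tumor. Timp1 had 7.37, 5.76 and 6.23 CPM in the lines (log2 fold change 2.67, SE 0.31, edgeR adjusted p = 5.14e-05). Timp3 had 7.45, 7.70 and 8.93 CPM in the lines, with little spread, and lay 3.28 higher in Tumor on the log2 scale (SE 0.48, edgeR adjusted p = 0.000401). Timp4 had 26, 11 and 17 counts in the lines and 1 over Tumor, and it was called lower in Tumor (edgeR adjusted p = 0.0394), a call lost in 6 of 16 alternatives, with DESeq2 and without WT 2, ITF1 or any one Tumor library.

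The relapsed lines against WT asked whether a passage through a treated tumor left a change that culture kept. No member was called by edgeR in 29 tested, where 0.0402% of all tested genes were, 6 genes in all. At an unadjusted p under 0.05 there were 3 members (Adamts13, Timp1 and Timp3), where 11% of all tested genes passed that limit, and DESeq2 called 1 member, Timp3. Timp3 was lower in each of the 3 lines, at 7.45 to 8.93 CPM, than in any WT library, the lowest of which had 16.5 CPM, and the log2 fold change was -2.57 (SE 0.49, edgeR adjusted p = 0.0905). It was called lower without WT 1, without WT 2 and without ITM, and without WT 1 the log2 fold change shrank to -1.60. In 13 of 19 alternatives Timp3 stayed uncalled, at an edgeR adjusted p of up to 0.941. Timp1 had a log2 fold change of -0.73 (SE 0.32, edgeR adjusted p = 0.428). Timp2 and Timp4 had log2 fold changes of 0.09 and -0.09 (SE 0.25 and 0.62, edgeR adjusted p = 0.943 and 0.998), with signs that changed with the libraries used. The lines differed among themselves for some members. Adamts14 had 53.98 CPM in ITF1, 10.1 CPM in Rel and 2.996 CPM in ITM, against the WT values of 5.66 to 84.1 CPM, so that both groups were scattered. Mmp11 had 97.7 CPM in Rel and 34.4 and 33.97 CPM in ITF1 and ITM, and Adamts1 was highest in Rel as well, at 328 CPM. Adamts13 had 4, 43 and 19 counts in ITF1, Rel and ITM. Each line is 1 library, so a difference between lines has no replicate.

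The Lyso comparison asked what T cell granules change in cultured B16F10. The methods put the granule-treated cells on low-adherence plates coated with poly-l-lysine and name no such plate for the other cultures. An effect of the plate can therefore not be told apart from one of the granules. Against WT, Adamts6 and Adamts13 were called higher and Adamts5 and Timp4 lower, and no MMP was called by edgeR or DESeq2, with 1 of 11 tested at an unadjusted p under 0.05, where 18.7% of all tested genes were. That is 2 of 29 tested members higher, where 2.43% of all tested genes were, and 2 lower, where 0.576% were. The median log2 fold change was -0.02 over the members and 0.00 over all genes. Adamts5 had 1.89, 2.33 and 2.67 CPM in Lyso 1, 2 and 3, below all WT libraries (5.09 to 7.02 CPM) and all relapsed lines (5.22 to 6.65 CPM). Its log2 fold change was -1.45 against WT (SE 0.24, edgeR adjusted p = 0.00439) and -1.34 against the relapsed lines (SE 0.22, edgeR adjusted p = 0.00291). Adamts6 had 2.92, 2.98 and 4.21 CPM in Lyso, above all WT and relapsed libraries, a log2 fold change of 1.52 against WT (SE 0.36, edgeR adjusted p = 0.0292) and 1.67 against the lines (SE 0.30, edgeR adjusted p = 0.00528). Adamts13, which cuts von Willebrand factor and is known from liver and endothelium, had 36, 44 and 42 counts in Lyso and 0, 2 and 3 in WT. That was a log2 fold change of 3.78 (SE 0.88, edgeR adjusted p = 0.0292), while against the lines, where Rel came close to Lyso, it was 1.31 (SE 0.55, edgeR adjusted p = 0.181).

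Timp4 had 2, 0 and 0 counts in Lyso against 30 in all over WT and 54 over the relapsed lines, a rate 23.96 times higher in WT (95% counting interval 6.08 to 207) and 20.4 times higher in the lines (95% counting interval 5.37 to 173). It was called lower in Lyso in both comparisons (edgeR adjusted p = 0.0269 and 0.0147), with WT 1 overlapping Lyso at 0. The number of calls between Lyso and WT was 1 without WT 3 (Timp3, not among the 4), 2 without Lyso 1, and 1 without either Lyso 2 or Lyso 3. Adamts5 kept its call except without WT 3 (adjusted p = 0.0712), and the call of Adamts6 was lost without WT 2, WT 3 (log2 fold change 2.21) or any one Lyso library. That of Adamts13 was lost without WT 3 or any one Lyso library, with a log2 fold change of 2.89 without WT 3 and 4.43 without WT 2, and that of Timp4 against WT without WT 2, WT 3, Lyso 2, Lyso 3 or Tumor 3, and against the lines without Lyso 2 or Lyso 3. With the deep WT 3 as the only control, the log2 fold change of Adamts6 fell to 1.239, while that of Adamts13 was 4.26. A single control has no spread of its own, so that fit cannot decide whether these higher calls hold. Timp3 had 14.2, 13.3 and 14.4 CPM in Lyso, below every WT library, and missed the threshold (log2 fold change -1.77, SE 0.48, edgeR adjusted p = 0.0530), which it passed with DESeq2 and in 6 other alternatives. Without WT 1 the log2 fold change of Timp3 was -0.79, and without a Lyso library the adjusted p rose to as much as 0.171. Timp1 and Timp2 had log2 fold changes of 0.19 and -0.43 (SE 0.31 and 0.25, edgeR adjusted p = 0.811 and 0.389) and were not called, and the sign of Timp1 changed without WT 1. Mmp2, Mmp11 and Mmp14 had log2 fold changes of -0.28, 0.26 and 0.10 (SE 0.28, 0.45 and 0.15) and were not called. T cell markers moved with Lyso, with a summed level of 9.80 to 10.5 CPM against 1.27 to 6.79 CPM in WT and 0.603 to 1.80 CPM in the relapsed lines. Cd8a and Cd8b1 were called higher in Lyso than in WT, and Lck, Cd8a and Cd8b1, the 3 tested markers of the 8, higher than in the lines. Of other lists, Thy1 and Ptprc were called higher and Col1a1 and Postn lower in Lyso than in WT. The part of these markers in the Lyso results was not tested.

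Lyso against the relapsed lines, both deeply sequenced, had 3 calls in 29 tested members, 1 higher (Adamts6), where 3.21% of all tested genes were, and 2 lower (Adamts5 and Timp4), where 1.04% were. Without the line Rel there were 5 calls, with Adamts13 and Mmp11 as higher calls beside the other 3. Mmp11 had 168, 104.1 and 111 CPM in Lyso and 34.4, 97.7 and 33.97 CPM in the lines, so Rel alone came near Lyso, and the log2 fold change with all lines was 1.21 (SE 0.44, edgeR adjusted p = 0.123).

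**Figure D5:**
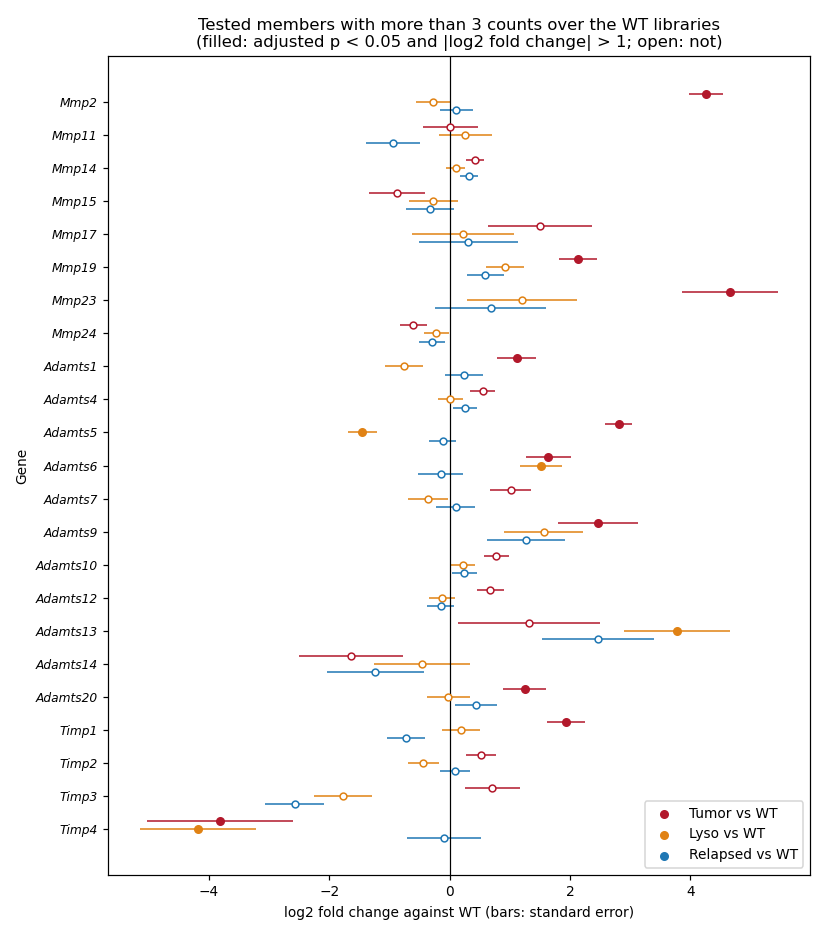
Log2 fold change against WT (x axis) with its standard error (bars) for the tested members with more than 3 counts over the WT libraries, in Tumor (red), Lyso (orange) and the relapsed lines (blue), filled where called. Adamts5 is called in opposite directions in Tumor (2.81) and Lyso (-1.45), and no blue point is filled.

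Whether the change in Tumor differed from that in Lyso was tested directly, by Tumor against Lyso, which shares libraries with the comparisons above. There 15 of 29 tested members were higher in Tumor, against 8.78% of all tested genes, and 1 was lower, against 4.14%. Of the 22 members not tested through Tumor, 9 were higher and 1 lower, here too without a like share over all genes. Adamts5 was higher in Tumor by 4.26 on the log2 scale (SE 0.23, edgeR adjusted p = 6.68e-08) and Mmp2 by 4.54 (SE 0.27, edgeR adjusted p = 1.51e-07). Adamts1 had 104, 108.9 and 107 CPM in Lyso, a narrow spread, and was 1.87 higher in Tumor (SE 0.32, edgeR adjusted p = 0.00109). Adamts7, which cuts cartilage oligomeric matrix protein, had 3.21, 2.33 and 2.11 CPM in Lyso and 7.15, 6.84 and 5.88 CPM in Tumor (log2 fold change 1.38, SE 0.32, edgeR adjusted p = 0.00706). Adamts20 was called higher in Tumor as well (log2 fold change 1.27, SE 0.33, edgeR adjusted p = 0.0135, and 0.0571 without Lyso 1). Adamts6 did not differ between Tumor and Lyso beyond the spread of the libraries (log2 fold change 0.12, SE 0.31, edgeR adjusted p = 0.813). Timp1 and Timp3 were higher in Tumor by 1.75 (SE 0.30, edgeR adjusted p = 0.000986) and 2.48 (SE 0.47, edgeR adjusted p = 0.00197). Adamts13 was the 1 member lower in Tumor, with 1, 2 and 5 counts there (log2 fold change -2.46, SE 0.76, edgeR adjusted p = 0.0320), a call lost without any one Lyso library, Tumor 1 or Tumor 3, and a log2 fold change of -3.24 without Tumor 4.

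Enzymes, inhibitors and substrates that act beside this family were counted in a list of 40 genes, 32 of them tested. In Tumor against WT, 16 were called higher, where 8.56% of all tested genes were, and 1 lower, where 2.2% were. Genes of the list that were tested only through Tumor were not set apart. The higher calls may therefore include genes whose p is a description. By class, the higher calls were 5 of 6 tested genes of the plasminogen system, 2 of 4 convertases of precursor MMPs and ADAMTS enzymes, 1 of 3 membrane regulators and inhibitors, 2 of 7 ADAM sheddases, 3 of 6 cathepsins and heparanase, 2 of 3 substrates and 1 of 3 clearance receptors and fibulin. Vcan, the proteoglycan versican that Adamts1, Adamts5, Adamts9, Adamts15 and Adamts20 cut, rose from a mean of 0.751 CPM in WT to 58.4 CPM in Tumor (log2 fold change 5.93, SE 0.43, edgeR adjusted p = 1.64e-06). The convertases Pcsk5 and Pcsk6 were called higher, with means of 19.4 and 11.3 CPM in Tumor and 0.0590 and 0 CPM in WT. Both were nearly absent from WT, so their calls are given as a description. The collagen-degrading cathepsin Ctsk was called higher as well (log2 fold change 3.61, SE 0.41, edgeR adjusted p = 7.21e-05). Bcan, the proteoglycan brevican, was the 1 gene called lower, with a mean of 14.2 CPM in WT and 0.534 CPM in Tumor (log2 fold change -4.66, SE 0.71, edgeR adjusted p = 0.000629). Ctsd, Pcsk7 and Plaur came next on the lower side, with log2 fold changes of -0.86, -0.30 and -1.04. Ctsd passed the p threshold (edgeR adjusted p = 0.00973) short of the fold limit, and the other two did not pass it.

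In Lyso against WT the same list had 2 higher calls, where 2.43% of all tested genes were called higher, and 1 lower, where 0.576% were. DESeq2 called 5 genes of the list. By edgeR, 8 had an unadjusted p under 0.05, where 18.7% of all tested genes did. Furin, a convertase that activates Mmp11, Mmp14 and many ADAMTS precursors, had a mean of 85.1 CPM in WT and 173 CPM in Lyso (log2 fold change 1.01, SE 0.23, edgeR adjusted p = 0.0230). Bcan was higher in Lyso, at 49.2 CPM (log2 fold change 1.75, SE 0.41, edgeR adjusted p = 0.0282). In the relapsed lines against WT, 0 of the 32 genes were called by edgeR and 0 by DESeq2, where 0.0402% of all tested genes were called by edgeR. There were 7 at an unadjusted p under 0.05, where 11% of all tested genes passed that limit.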

How the data were processed

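RNA-seq libraries of 12 B16F10 samples were analysed. The authors trimmed reads with fastp 0.19.6, aligned them to GRCm38 with STAR 2.7.1a and deposited raw counts per gene without normalization, and they tested them with DESeq2 1.24.0. How strand was treated in counting, and which annotation was used, is not given in the sources used here. The deposited table held 54232 genes and 4 rows of reads on no gene, which were left out, and reads on genes made up 36.2% to 39.4% of each column. Reads that match several genes were not counted. Gene names and positions came from GENCODE, which holds 54165 of the identifiers, and start regions from RefSeq.

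Counts were fitted in R 4.3.3 with edgeR 4.0.16 (TMM scaling, filterByExpr by group, glmQLFit and glmQLFTest, 1 fit of all 12 libraries). The Benjamini-Hochberg adjustment ran over 14924 genes, and 6 comparisons were made. A call needed an adjusted p under 0.05 and a log2 fold change beyond 1. Groups came from the sample labels. Members with 3 counts or fewer over a group were compared by pooled rates, with exact 95% binomial intervals or, at 0 counts, a floor of 3 counts over the group, and intervals and floors cover counting error only. The fit was checked on simulated counts. Alternatives were DESeq2 1.42.0, other scalings and filters, subsets of libraries, a replicate block and each library left out in turn.

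The members, the marker lists and the protease list were chosen with earlier results of these data known. Genes were named by rule, as every member called in any comparison, the 4 TIMPs, the 5 members with the highest mean CPM, the genes of the protease list called in Lyso or the relapsed lines, and the 4 genes of that list with the smallest p in each direction in Tumor. The values of 1 gene of the protease list are not reported here. Other members are named from their counts after these were seen.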

Additional observations from a re-analysis of the deposited data

Results flagged for a closer look

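Adamts5 was called in opposite directions against WT, higher in Tumor and lower in Lyso, and the direct test of the difference gave 4.26 on the log2 scale (SE 0.23, edgeR adjusted p = 6.68e-08). Tumor had 37.2 to 55.4 CPM, Lyso 1.89 to 2.67 CPM and WT 5.09 to 7.02 CPM, so the 3 groups did not overlap. Depth differed between these groups and fibroblast markers were high in Tumor alone, and the part of either was not tested.

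Some members that failed the expression filter had Tumor counts above the limit that 0 counts allow. They were picked for more than 3 counts in at least 2 Tumor libraries and 3 or fewer in every cultured library. Over the 3 Tumor libraries Mmp10 had 23 counts, Mmp12 had 22, Mmp13 had 18 and Adamts16 had 18. Over WT they had 2, 1, 0 and 0 counts. The rates in Tumor were 19.7 times those of WT for Mmp10 (95% counting interval 4.88 to 173) and 37.7 times for Mmp12 (95% counting interval 6.10 to 1558), and at least 10.3-fold higher for Mmp13 and Adamts16. Since the pick itself asked for more counts in Tumor, these ratios and floors are a description and no test. The intervals cover counting error only, while Mmp10 had 11, 11 and 1 counts in Tumor 1, 3 and 4.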

How the results depend on the processing

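Of 123 recomputed counts of called members, 106 stayed within 1.5 times the reported count, and of 1220 recomputed single-gene values, 1125 kept their direction and side of the threshold. Many of these runs left out a library of a group that was not compared, which can change little. In Tumor against WT, the run with WT 1 and WT 2 only is the same fit as that without WT 3. These totals are therefore no measure of independent agreement. Requiring 10 counts or more in each compared library left 2 calls in Tumor against WT (11 members tested), 0 in Lyso against WT, 6 in Tumor against the relapsed lines and 8 in Tumor against Lyso, since fewer members were tested. With each library left out in turn the calls ran from 10 to 20 in Tumor against WT, 1 to 5 in Lyso against WT, 0 to 1 in the relapsed lines against WT, 12 to 20 in Tumor against the lines, 14 to 20 in Tumor against Lyso and 2 to 5 in Lyso against the lines. The relapsed lines against WT had 1 call, Timp3, with DESeq2, without the filter and with WT 3 as the only control, where the lone control was assumed to vary like the other groups, and Lyso against the lines had 5 calls without the filter. Values that changed sign were Mmp11 in Tumor against WT (-0.014 with DESeq2, -0.063 with library size as the only scaling, -0.023 without the filter, -0.32 with WT 1 and WT 2 only, and -0.32 to 0.63 with a library left out), Timp1 in Lyso (-0.080 with WT 3 only, -0.026 to 0.49 with a library left out), Timp2 in the relapsed lines (-0.27 with WT 3 only, -0.19 to 0.31 with a library left out) and Timp4 in the relapsed lines (0.067 with DESeq2, -0.58 to 0.37 with a library left out), and the cause was not tested. None of these was called in the reported fit.

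Replicate numbers shared by WT, Lyso and Tumor gave little sign of paired libraries. Correlations of deviations were -0.015 to 0.014 between WT and Lyso, 0.1002 and 0.012 between WT and Tumor and -0.0073 and 0.020 between Lyso and Tumor. So few libraries cannot exclude a pairing. Between WT and Lyso, 2 of 6 libraries correlated best with their own number. With the number as a block, the calls were 12 in Tumor against WT, 3 in Lyso against WT and 14 in Tumor against Lyso, and 13, 3 and 14 in the same libraries without the block. Scaling by library size alone shifted the median of all genes by -0.10 in Lyso against WT. Depth limits members near 1 CPM in the shallow WT 1, WT 2 and Tumor libraries.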
